A study of Mus musculus with 6 samples.

Results

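Tropomyosins and the contractile proteins of smooth muscle were followed through the colon mucosa of mice with and without a partial deletion of Dnmt3a, an enzyme that sets new DNA methylation. The set holds 10 genes, the tropomyosins Tpm1 and Tpm2 and the smooth muscle genes Acta2, Actg2, Myh11, Myl9, Tagln, Cnn1, Des and Lmod1. All 21 probes that the platform annotation assigns to these genes were taken, of 45135 on the array, which names 19031 genes. Tpm2 was selected on its measured difference between the Dnmt3a-deleted and control mice of these same arrays, so its difference is given as a description with no test. The other 9 genes were chosen for their known place in smooth muscle, to ask whether they shared that difference.

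RNA came from 3 Dnmt3a-deleted mice, which were APC(Min/+), Dnmt3a(2lox/2lox) and Fabp-Cre+ (by title Fabpl(4x at -132)-Cre(-/+)), and from 3 control mice, which were APC(Min/+), Dnmt3a(2lox/2lox) and Fabp-Cre- (Cre(-/-) for the same transgene). All 6 were 5 months old, on a C57/B6 background, and all carried 2 floxed Dnmt3a alleles and the Min allele of Apc, known for causing gut tumours. Fabp-Cre is driven by a promoter of a fatty acid binding protein gene, known in the mouse for activity in gut epithelium, and per the design it removed Dnmt3a from 30 to 50% of mucosa cells. Each mouse has its own animal number and 1 Illumina bead array, on which a probe's signal is the mean brightness of its beads.

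A tropomyosin is a coiled coil that lies along the actin filament and sets which myosins and actin-binding proteins can reach it. Smooth muscle builds its filaments from its own actins, Acta2 and Actg2, and its own myosin, Myh11, and these genes are known as targets of serum response factor and its coactivator myocardin. In the colon such cells form the outer muscle layers and the thin muscularis mucosae, while tropomyosins and non-muscle actins are also made by epithelial cells.

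The average signal per array was 285 to 368 in the Dnmt3a-deleted and 360 to 379 in the control group. Dnmt3a-deleted replicate 3 stood apart from the rest, with correlations of 0.925 to 0.950 with the other 5 arrays, against at least 0.978 among those 5. It was also the only female of its group by Xist and Eif2s3y, while the controls held 1 male and 2 females. Differences were also computed without it, and those of many named genes are given both ways. As a check of the tissue label, all 10 fixed markers of colon epithelium had a probe detected on at least 3 arrays.

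Most smooth muscle genes of the set were not well above background in any mouse. Detection on an array required a deposited p-value under 0.05 together with a signal brighter than background, which was 84.9 to 90.2 on the Dnmt3a-deleted and 88.0 to 90.7 on the control arrays. Of the 21 probes, 10 were detected on no array, 3 on 1 or 2 arrays and 8 on at least 3, and these 8 were kept for the fit. They belong to 5 genes, Tpm1, Tpm2, Acta2, Tagln and Des. Actg2, Myh11, Myl9, Cnn1 and Lmod1 had no kept probe.

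The defining myosin of smooth muscle, Myh11, was detected by neither of its 2 probes. The signals of the first were 88.4, 81.5 and 83.4 in Dnmt3a-deleted and 87.3, 85.4 and 92.0 in control mice, and those of the other were 82.8, 87.0 and 83.9 in Dnmt3a-deleted and 85.9, 84.2 and 85.9 in control mice. Both probes thus read about the background level in all 6 mice. Myl9, the regulatory light chain of that myosin, read 84.9, 85.6 and 78.1 in Dnmt3a-deleted and 83.5, 90.8 and 87.3 in control mice, and was detected on 0 arrays. Lmod1, leiomodin, which starts actin filaments in smooth muscle, read 89.6, 95.8 and 89.0 in Dnmt3a-deleted and 93.2, 92.9 and 91.6 in control mice, also detected on 0 arrays. The groups overlapped in both. Cnn1, calponin, an actin-binding protein that restrains myosin, was detected on 1 control array and on 0 Dnmt3a-deleted arrays, with signals of 91.8, 90.6 and 91.6 in Dnmt3a-deleted and 95.4, 88.9 and 84.0 in control mice. Actg2, the actin of gut smooth muscle, was detected on 1 array of each group, with signals of 85.4, 88.8 and 91.9 in Dnmt3a-deleted and 84.0, 77.8 and 107.5 in control mice. No fold is given for these 5 genes, since both groups lay at background. Over the 13 probes that were not kept, signals ran from 0.877 to 1.19 times the background level.

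**Figure D1:**
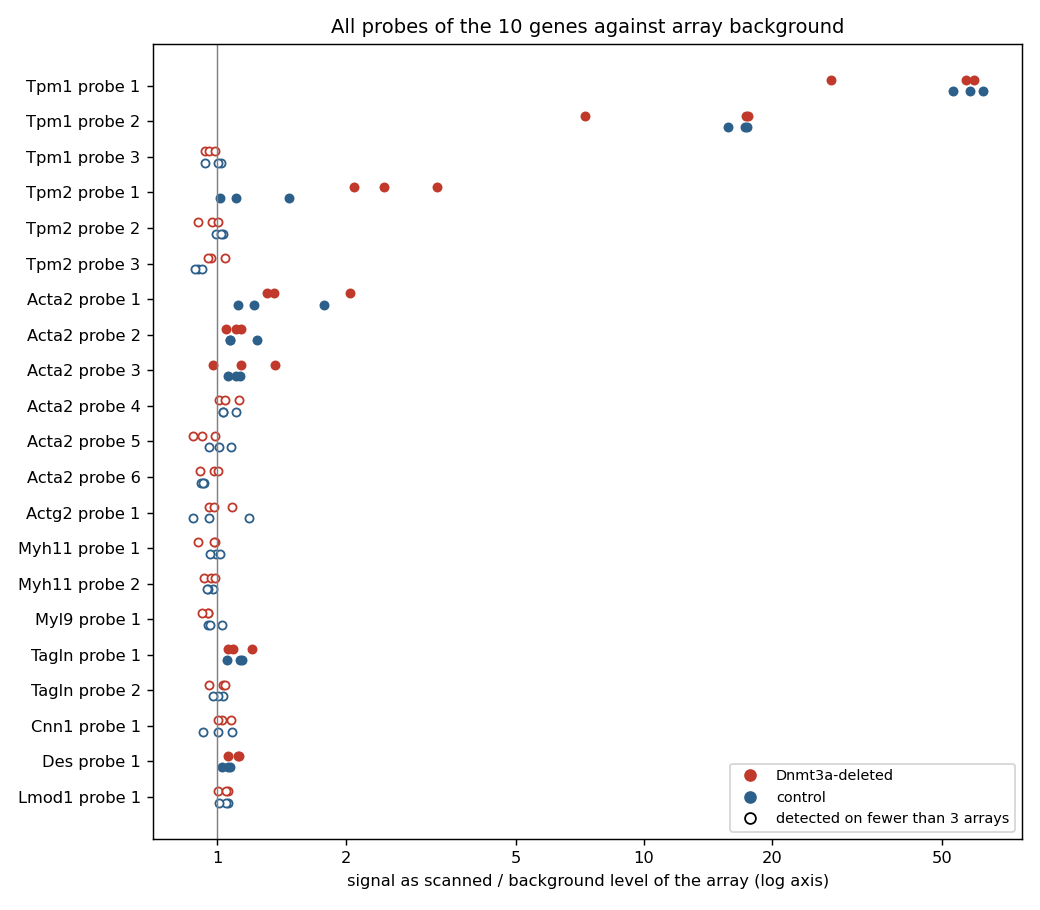
Signal as scanned divided by the background level of the array (log axis) for all 21 probes of the 10 genes, with Dnmt3a-deleted mice (red) above control mice (blue) in each row and open points for probes detected on fewer than 3 arrays. The grey line marks background; the first 2 Tpm1 probes, the first Tpm2 probe and the first Acta2 probe stand away from it, and the 13 open rows lie between 0.877 and 1.19.

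Tpm2 was read by 3 probes, and 1 of them was detected. The first probe gave signals of 219, 294 and 177 in Dnmt3a-deleted mice and 130, 98.2 and 92.0 in control mice, or 2.46, 3.27 and 2.09 times background in Dnmt3a-deleted against 1.47, 1.11 and 1.01 times in control mice. It was detected on all 3 Dnmt3a-deleted arrays and on 1 control array, that of replicate 1. After background correction, quantile normalization and log2, the values were 7.29, 7.72 and 7.50 in Dnmt3a-deleted and 6.11, 5.31 and 4.97 in control mice. The groups did not overlap, and control replicates 2 and 3 lay close to the level of 4.92 to 4.93 that background takes on this scale. The means were 7.50 ± 0.21 in Dnmt3a-deleted and 5.46 ± 0.58 in control mice (SD, n = 3 each), a log2 difference of 2.04 ± 0.30 (SE). Because the control group reached background, the size moved with the treatment of background. The log2 difference was 1.21 with no background correction and 1.20 in the authors' processed values, and 2.52 with limma's neqc.

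The other 2 Tpm2 probes were detected on 0 arrays. One read 86.6, 81.3 and 85.2 in Dnmt3a-deleted and 87.5, 91.7 and 92.8 in control mice, and the other 86.2, 94.1 and 81.0 in Dnmt3a-deleted and 79.2, 81.7 and 80.6 in control mice. For the last one the normalized log2 values did not overlap, at 4.78, 5.08 and 4.67 in Dnmt3a-deleted and 4.43, 4.56 and 4.40 in control mice, but it was detected on no array. All 3 probes carry the same transcript accession in the annotation. Their sequences were not used here, so where in the transcript each one lies was not examined, and the difference of Tpm2 was read above background by a single probe.

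The promoters of Tpm2, Tpm1 and Acta2 are shown because Dnmt3a methylates cytosine in CpG pairs and because the question here is what Tpm2 shares with smooth muscle genes. Each is 300 bases, 250 before and 50 after the start, 5′ to 3′ on the gene's strand, from RefSeq with build GRCm38.p6, at chr4:43523505-43523804 (minus strand) for Tpm2, chr9:67049164-67049463 (minus strand) for Tpm1 and chr19:34255324-34255623 (minus strand) for Acta2. Capitals mark CpG pairs (the letters CG, which read the same on both strands).
Tpm2: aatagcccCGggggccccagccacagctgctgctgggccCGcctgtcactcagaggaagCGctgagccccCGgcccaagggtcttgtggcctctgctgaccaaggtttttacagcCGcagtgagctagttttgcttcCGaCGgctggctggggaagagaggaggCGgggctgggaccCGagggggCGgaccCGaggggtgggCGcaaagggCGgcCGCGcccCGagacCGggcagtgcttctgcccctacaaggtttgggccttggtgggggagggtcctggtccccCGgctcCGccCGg
Tpm1: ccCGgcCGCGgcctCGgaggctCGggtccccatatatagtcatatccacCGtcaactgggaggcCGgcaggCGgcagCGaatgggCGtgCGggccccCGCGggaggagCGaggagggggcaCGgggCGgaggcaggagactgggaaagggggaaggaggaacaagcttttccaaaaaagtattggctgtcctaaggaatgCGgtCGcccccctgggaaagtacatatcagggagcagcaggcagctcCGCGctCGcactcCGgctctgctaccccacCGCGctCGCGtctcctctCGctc
Acta2: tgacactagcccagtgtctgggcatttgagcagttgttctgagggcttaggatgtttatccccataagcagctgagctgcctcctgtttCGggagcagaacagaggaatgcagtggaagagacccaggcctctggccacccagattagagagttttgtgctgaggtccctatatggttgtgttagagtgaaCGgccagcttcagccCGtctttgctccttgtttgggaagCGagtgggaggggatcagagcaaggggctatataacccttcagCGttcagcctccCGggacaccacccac

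The Tpm2 promoter held 20 CpG pairs and the Tpm1 promoter 27, while that of Acta2 held 6. The median over 32841 promoter windows of this length was 7, and 73.5% of them held fewer than Tpm2, 84.5% fewer than Tpm1 and 43.6% fewer than Acta2. Promoters were matched for 7 of the 10 genes, and the others, Myl9, Des, Lmod1 and Cnn1, held 20, 11, 7 and 6. A search for the CArG box, the 10-base motif of serum response factor, which is its own reverse complement, found an exact match in 1 of the 7, that of Myl9. Exact matches were in 1.63% of all windows. With up to 1 mismatch, 4 of the 7 promoters had a match, those of Tpm1, Acta2, Myl9 and Lmod1, against 21.1% of all windows. Those of Tpm2, Cnn1 and Des had 0. Sites outside these 300 bases were not searched. Methylation was not measured in these data.

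Tpm1, the other tropomyosin of the set, was far above background on all arrays by its first 2 probes. Its brightest probe stood at log2 12.34, 12.24 and 11.51 in Dnmt3a-deleted and 12.25, 12.13 and 12.30 in control mice, and its second at 10.55, 10.44 and 9.56 in Dnmt3a-deleted and 10.43, 10.48 and 10.28 in control mice. For both probes Dnmt3a-deleted replicate 1 lay just above the control mice, replicate 2 among them and replicate 3 below all others. The log2 differences were -0.19 ± 0.24 and -0.21 ± 0.27 (SE), with adjusted p of 0.779 and 0.792 by limma over all 21183 kept probes, and 95% intervals of -0.75 to 0.36 and -0.84 to 0.42. Without Dnmt3a-deleted replicate 3 they turned to 0.064 and 0.10. The remaining Tpm1 probe was detected on 0 arrays.

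Acta2, the main smooth muscle actin, had 6 probes that did not read alike. The brightest was detected on all 6 arrays, at 5.85, 5.89 and 7.46 in Dnmt3a-deleted and 5.34, 5.62 and 6.44 in control mice. Replicate 3 was the highest mouse of each group, and the groups overlapped. The log2 difference was 0.60 ± 0.48 (SE; adjusted p 0.710 by limma) and 0.071 without Dnmt3a-deleted replicate 3. That was its lowest value with 1 mouse left out, and the highest was 0.92, without control replicate 3. The second probe, detected on 4 arrays, stood at 5.12, 5.29 and 5.59 in Dnmt3a-deleted and 5.18, 5.20 and 5.60 in control mice, a difference of 0.0030 ± 0.20. The third, detected on 3 arrays, stood at 5.40, 5.91 and 4.82 in Dnmt3a-deleted and 5.30, 5.17 and 5.34 in control mice, a difference of 0.11 ± 0.27. Over the 6 mice the second probe read 1.05 to 1.24 times the background level and the third 0.980 to 1.37 times. The remaining 3 were detected on at most 2 arrays.

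Tagln, also called SM22, an actin-bundling protein of smooth muscle, and Des, desmin, its intermediate filament, were each detected on 4 arrays, 2 of each group. Tagln stood at 5.60, 5.24 and 5.25 in Dnmt3a-deleted and 5.11, 5.41 and 5.34 in control mice, a log2 difference of 0.075 ± 0.18 (SE; adjusted p 0.887 by limma). Its second probe was detected on 0 arrays. Des stood at 5.16, 5.33 and 5.54 in Dnmt3a-deleted and 5.18, 5.15 and 5.01 in control mice, a difference of 0.23 ± 0.16 (adjusted p 0.701 by limma). The groups overlapped for both genes, and all values lay from 5.01 to 5.60, where background is 4.92 to 4.93.

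**Figure D2:**
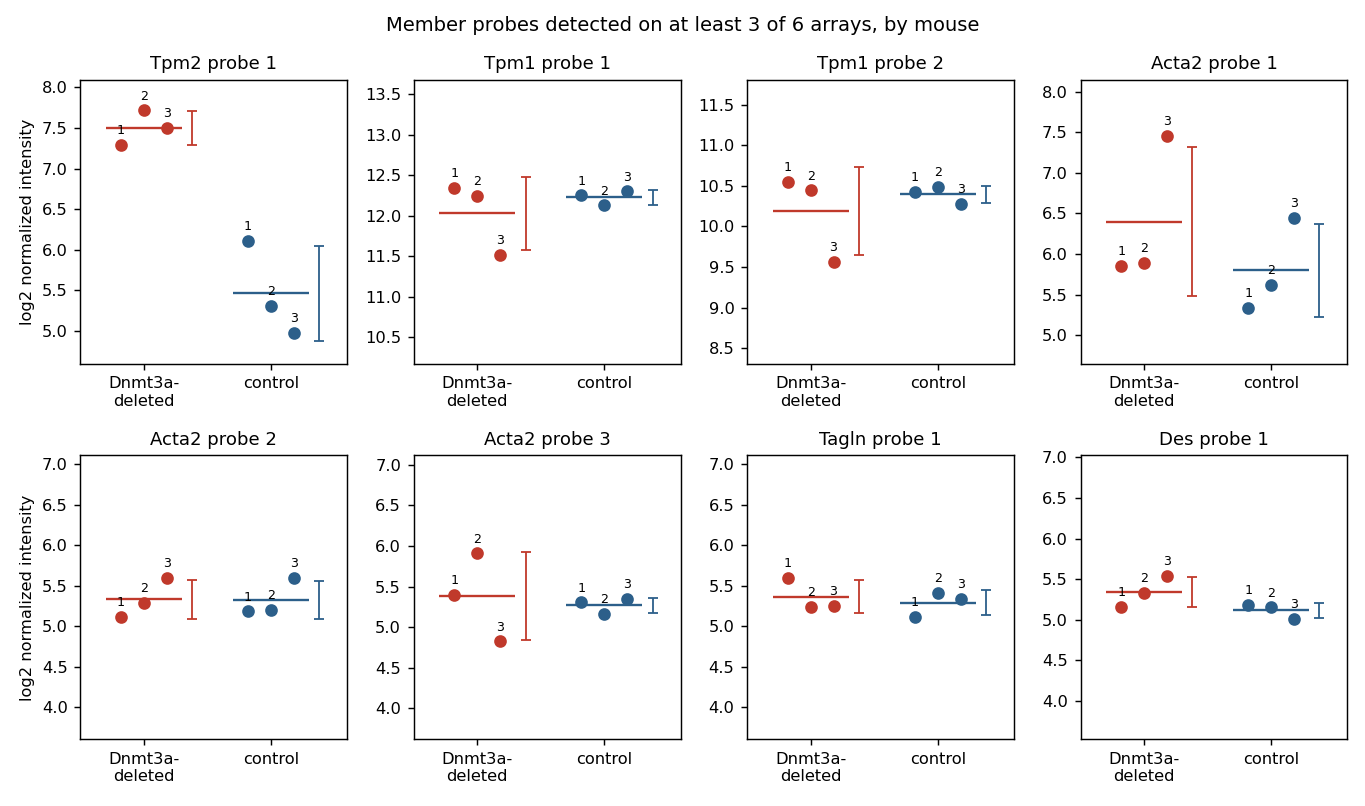
Log2 normalized intensity of the 8 kept probes by mouse, Dnmt3a-deleted (red) left of control (blue), with the replicate number above each point, a line at the group mean and a bar of ± 1 SD beside it (n = 3 each). Every panel spans the same number of log2 units; the groups are apart for the first Tpm2 probe, at 7.29 to 7.72 against 4.97 to 6.11, and overlap in the other 7 panels.

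Of the 7 kept probes of the other members, 0 were called higher and 0 lower at an adjusted p under 0.05 by limma, and 0 had an unadjusted p under 0.05. Over all kept probes 0.00472% were called in that comparison, 1 probe, that of Tff2, and 4.89% had an unadjusted p under 0.05. The groups overlapped for all 7, while 14.4% of all kept probes had groups that did not overlap, 8.06% with Dnmt3a-deleted above control and 6.34% with it below. The differences ran from -0.21 to 0.60, with 5 above and 2 below 0. Their 95% intervals reached at most 1.71, at the brightest Acta2 probe. Over the brightest kept probe of each of the 4 other members that had one, the median log2 difference was 0.15. With the brightest probe of all 9 other members, detected or not, it was 0.075. That second median cannot show whether the members share the Tpm2 difference, since 5 of the genes had no kept probe and lay at background. The median over all kept probes was 0.025. Probes near background understate a change, since the background that remains in the value does not change with it. In bulk mucosa, fewer cells of a type and less RNA per cell cannot be told apart.

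Beyond the set, a fixed list of 31 further smooth muscle genes was read by a kept probe in 19 cases, and 0 of these passed the test in either direction. Their median log2 difference was 0.056, with 12 above and 7 below 0, and 0.041 without Dnmt3a-deleted replicate 3. The first 4 measured were Smtn, smoothelin, at 0.88 ± 0.30 (SE), Mylk, the kinase that switches smooth muscle myosin on, at -0.81 ± 0.47, Synm, synemin, at -0.22 ± 0.18, and Cald1, caldesmon, at -0.036 ± 0.15. With Dnmt3a-deleted replicate 3 left out, Smtn was at 0.60 ± 0.23, Mylk at -0.28 ± 0.29, Synm at -0.12 and Cald1 at -0.099. Synm and Cald1 stood near background, at log2 5.07 to 5.66 and 5.15 to 5.44 over the 6 mice. Smtn, which had the largest positive difference of the list, stood at 8.29, 8.38 and 9.17 in Dnmt3a-deleted and 8.02, 7.28 and 7.90 in control mice without overlap. Csrp1, a LIM protein of the actin cytoskeleton, had the largest negative one, -0.92 ± 0.35, at 8.29, 8.45 and 8.89 in Dnmt3a-deleted and 8.83, 9.37 and 10.20 in control mice. Without Dnmt3a-deleted replicate 3 that difference was -1.10 ± 0.35. Adjusted p was 0.699 for Smtn, Mylk and Csrp1 by limma. The 10 genes of the list with probes but none kept included the muscle proteins Synpo2, Pdlim3, Casq2 and Pln, each detected on 0 arrays. Which cells gave the signals of the 19 measured genes was not examined.

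Among the other tropomyosins and the proteins that act on filament ends, 7 of 10 had a kept probe and 0 passed the test. Tpm3 had a difference of -1.09 ± 0.54 (SE; adjusted p 0.699 by limma), at 11.08, 11.24 and 9.05 in Dnmt3a-deleted and 11.55, 11.33 and 11.76 in control mice. Its groups did not overlap, replicate 3 being by far the lowest of the Dnmt3a-deleted mice, and without that replicate the difference was -0.39 ± 0.17. Tpm4 was at -0.16, Tmod3, a tropomodulin that caps the pointed end of filaments, at -0.098, Lmod3 at 0.047 and the actin-severing Cfl2 at 0.076. Tpm4 turned to 0.038 and Cfl2 to -0.040 without Dnmt3a-deleted replicate 3, and Tmod3 was at -0.16 and Lmod3 at 0.018.

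**Figure D3:**
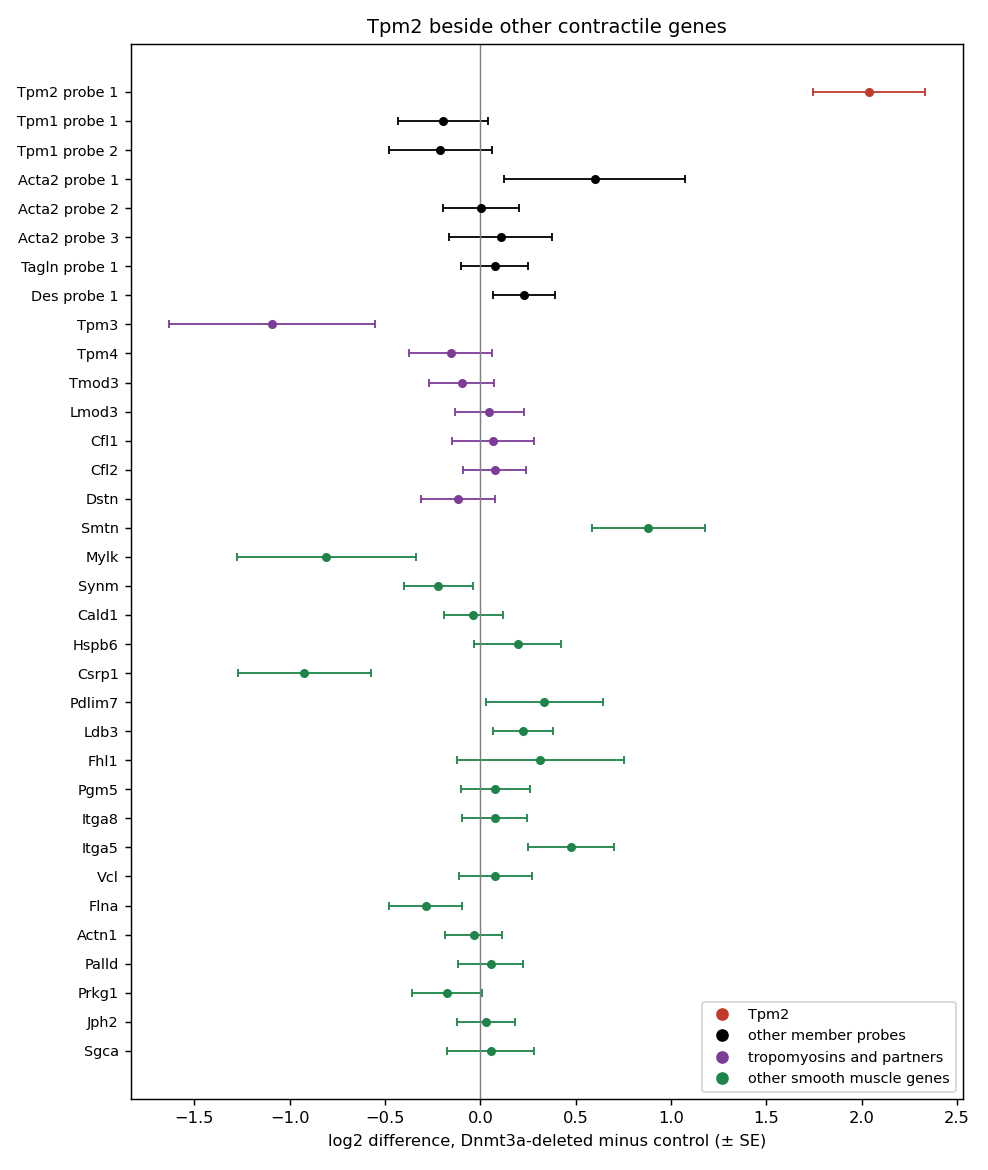
Log2 difference, Dnmt3a-deleted minus control, with ± SE from the fit, for the 8 kept probes of the set, the 7 measured tropomyosins and partners and the 19 other measured smooth muscle genes. The first Tpm2 probe, of the gene chosen for its difference, stands at 2.04, and the others lie between -1.09 (Tpm3) and 0.88 (Smtn).

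Non-muscle actin and myosin genes were measured in 7 of 10 cases and 0 passed the test, with a median of 0.18. Actb, cytoplasmic actin, was at 0.29 ± 0.16 (SE) without overlap of the groups, Myh9 and Myh14, heavy chains of non-muscle myosin, at 0.091 and 0.42, and Myl6, a light chain, at -0.18. The median was 0.092 without Dnmt3a-deleted replicate 3, Myl6 turned to 0.048, and Myh9 and Myh14 were at 0.22 and 0.24. Of 11 regulators of smooth muscle transcription 9 were measured and 0 passed, with a median of 0.023. Myocd, the coactivator myocardin, was at 0.090, Srf, serum response factor, at -0.037, Mrtfa and Mrtfb, the actin-sensing coactivators, at 0.044 and 0.041, and Klf4, which in smooth muscle opposes them, at -0.16. The range of these 9 was -0.16 to 0.090. Myocd, Mrtfa and Mrtfb stood near background, at log2 5.20 to 5.63, 5.04 to 5.45 and 4.85 to 5.69 over the 6 mice. A change in them would be understated. Without Dnmt3a-deleted replicate 3 the median was -0.020, Myocd turned to -0.020, Mrtfb to -0.054 and Klf4 to 0.27, and Srf and Mrtfa were at -0.30 and 0.10.

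Of 15 striated muscle genes 6 were measured, and 0 passed. Acta1, skeletal muscle actin, stood at 8.30, 8.40 and 9.28 in Dnmt3a-deleted and 8.78, 7.99 and 12.31 in control mice, a difference of -1.04 ± 1.00 (SE) in which control replicate 3 stood far above the other 5 mice. Without Dnmt3a-deleted replicate 3 that difference was -1.35 ± 1.08. Myh7, Tnni2 and Myl1 were at 0.25, 0.22 and 0.28 (0.084, 0.098 and -0.027 without Dnmt3a-deleted replicate 3), while Actc1, Ckm, Myh4, Tnnt3, Tnnc2 and Mb were detected on 0 arrays. Myh7, Tnni2 and Myl1 stood mostly near background, at log2 5.09 to 5.70, 5.16 to 5.83 and 5.04 to 6.10 over the 6 mice.

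Markers of pericytes, fibroblasts, endothelium, enteric neurons and glia, and interstitial cells of Cajal were mostly near background too. Kit, Ano1 and Thy1 stood above it, at log2 8.88 to 9.54, 7.19 to 8.42 and 6.69 to 7.72 over the 6 mice. Pericyte markers were measured in 4 of 8 cases, with Pdgfrb, Cspg4, Mcam and Kcnj8 at -0.020, -0.029, 0.21 and 0.30, fibroblast markers in 3 of 10, with Dcn, Vim and Thy1 at 0.080, -0.89 and -0.45, and endothelial markers in 2 of 8, with Vwf and Egfl7 at 0.81 and 0.092. Markers of enteric neurons and glia were measured in 2 of 10 cases, Ret at -0.31 and Gfap at 0.12, and those of interstitial cells of Cajal in 2 of 3, Kit at -0.077 and Ano1 at 0.42. Without Dnmt3a-deleted replicate 3 Pdgfrb turned to 0.085, Dcn to -0.24, Egfl7 to -0.035 and Kit to 0.073, while Vim was at -0.46, Vwf at 0.34, Cspg4 at -0.015 and Gfap at 0.068. The collagens Col1a1 and Col1a2 and the pericyte gene Rgs5 were detected on 0 arrays, and Col3a1 on 1. In these 5 lists 0 genes passed the test. Summed intensity of the measured fibroblast markers was 212 to 250 in Dnmt3a-deleted and 273 to 352 in control mice, and that of the pericyte markers 176 to 187 in Dnmt3a-deleted and 158 to 175 in control mice. The fibroblast sum rests on 3 genes, with Thy1 the brightest in all 6 mice, while Dcn was at 0.080. The measured pericyte genes stood at log2 4.90 to 5.89 over the 6 mice, so much of their sum is background. Neither sum was tested or read as a number of cells.

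Markers of tuft cells, leukocytes and the epithelium were read as well. Of the 12 tuft cell markers 8 were measured, 7 had a positive difference and 6 had Dnmt3a-deleted values above control without overlap, as had 8.06% of all kept probes, with a median of 0.63 (0.44 without Dnmt3a-deleted replicate 3). Dclk1, Trpm5, Avil and Sh2d6 were at 0.71, 0.61, 0.86 and 0.95, and Alox5ap at -0.21, and Dclk1 at 0.43 without Dnmt3a-deleted replicate 3. Their summed intensity was 616 to 741 in Dnmt3a-deleted and 396 to 731 in control mice, and Pou2f3 and Rgs13 were detected on 0 arrays. All 6 measured leukocyte markers were below 0, 3 of them without overlap, as in 6.34% of all kept probes, with a median of -0.83 (-0.88 without Dnmt3a-deleted replicate 3) and a summed intensity of 937 to 1584 in Dnmt3a-deleted and 1916 to 2573 in control mice. Cd3e was at -1.08, Cd52 at -0.87, Laptm5 at -0.66 and Ptprc at -0.070. Without Dnmt3a-deleted replicate 3 they were at -1.17, -0.85, -0.92 and -0.10. In both lists 0 genes passed the test. The lists were chosen with earlier results of these data known, so their counts beside the shares of all kept probes are a description only. The epithelial markers had a median of -0.041, from Car1 at -1.005 to Slc26a3 at 1.14, with Epcam, Cdh1, Vil1 and Krt8 at -0.19, 0.21, -0.29 and 0.056, and 0 passed. Without Dnmt3a-deleted replicate 3 the median was 0.084, Car1 was at -0.23 and Slc26a3 at 0.61, Cdh1 turned to -0.081 and Vil1 to 0.079, and Epcam and Krt8 were at -0.040 and 0.090. The part of these cell types in the Tpm2 difference was not tested.

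**Figure D4:**
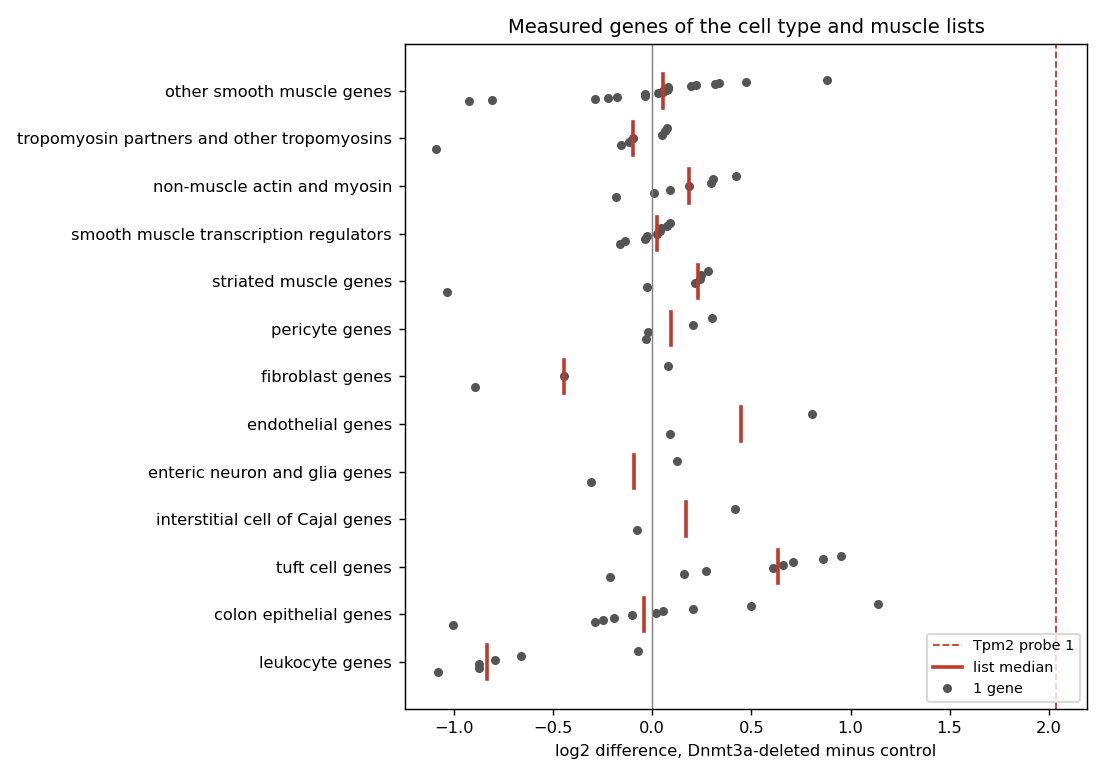
Log2 difference, Dnmt3a-deleted minus control, of each measured gene (grey points) of the 13 fixed lists, with the list median as a red bar and the first Tpm2 probe as a dashed red line at 2.04. All plotted genes lie below that line, the highest being Slc26a3 at 1.14, and the tuft cell and leukocyte medians stand at 0.63 and -0.83.

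Genes whose values ran closest to those of Tpm2 were sought over the 6 arrays, by the root mean square gap between log2 values centred on each gene's own mean. Of 11365 genes outside the set the nearest was Clca1, a secreted protein of goblet cells, with a gap of 0.44, against a median gap of 1.07. It stood at 13.74, 13.05 and 13.70 in Dnmt3a-deleted and 12.67, 11.86 and 10.90 in control mice, and like Tpm2 was highest among controls in replicate 1 and lowest in replicate 3. The next were AI467606 (0.44), C030013C21Rik (0.52), Cdkn1c, an inhibitor of cell cycle kinases (0.52), and Crip2, a LIM domain protein (0.63). All 5 were detected on all 6 arrays and had differences of 1.26 to 1.68. They were picked for their pattern over all 6 arrays, so neither the group difference nor the order of mice within a group is a finding about them. Within the set the gaps to Tpm2 were 0.96 for Des, 1.09 for Tagln, 1.11 for Acta2 and 1.21 for Tpm1. Their ranks among 11369 genes were 1712, 6285, 6878 and 9100. A gene flat over the 6 arrays would have a gap of 1.08, the root mean square of Tpm2 around its own mean. Only Des lay nearer than that, and its values were close to background. Nearest genes to Myh11 were not sought, since it had no kept probe.

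**Figure D5:**
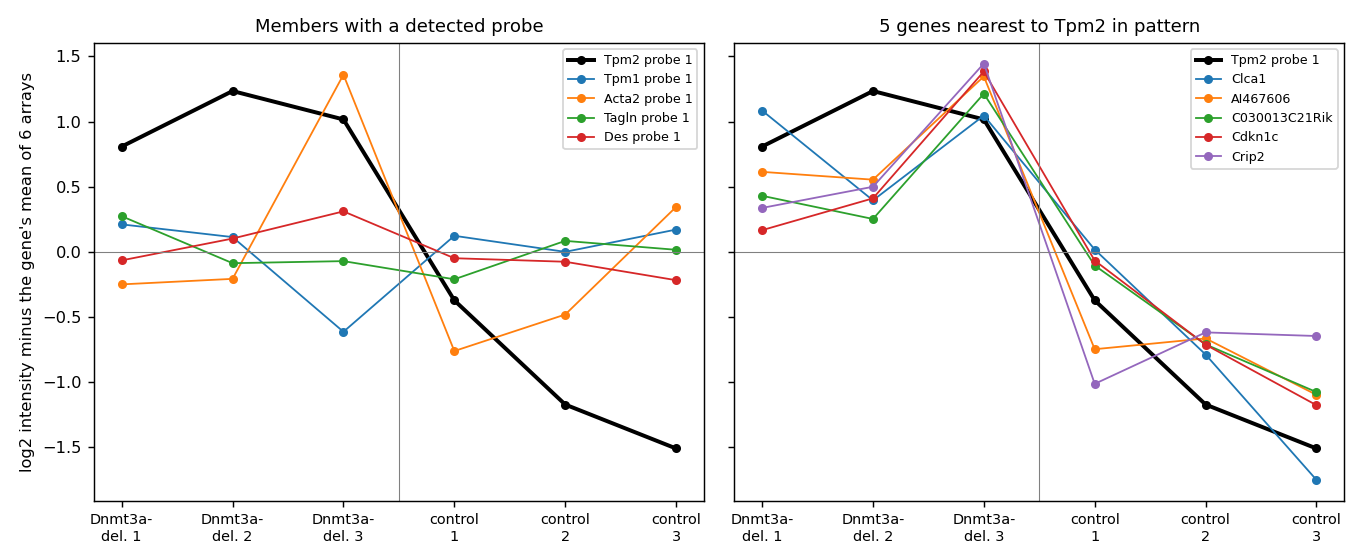
Log2 intensity minus the gene's mean of 6 arrays, for the first Tpm2 probe (black) with the brightest probes of the other members that were detected (left) and with the 5 nearest genes (right), Dnmt3a-deleted mice left of control mice. Lines only join the values of a gene. The root mean square gap to Tpm2 was 0.44 to 0.63 for the right-hand genes, which were picked for a small gap. It was 0.96 to 1.21 for the left-hand ones, where a flat gene would have 1.08.

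The genes next to Tpm2 on chromosome 4 were also read, chosen after the values of the set were seen. Of the 4 protein-coding genes on each side in the RefSeq order, all but Sit1 had a kept probe. The neighbours at Tpm2's sides, Car9, a carbonic anhydrase, and Tln1, talin, which links integrins to actin, had differences of 0.055 ± 0.16 and -0.20 ± 0.23 (SE), and of 0.14 and -0.013 without Dnmt3a-deleted replicate 3. The 7 measured neighbours ran from -0.33 (Gba2, -0.094 without that replicate) to 0.20 (Arhgef39, 0.099 without it), and 0 passed the test by limma, with adjusted p of at least 0.699.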

How the data were processed

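The deposited table holds an unprocessed signal intensity and a deposited detection p-value per probe, and the authors also deposited processed intensities (linear, background left in, with similar medians across arrays; how they were made is not given in the sources used here). From the values, the detection p-value was 2-sided about background, so detection also required a signal above the median of probes with p over 0.97. With limma 3.58.1 in R 4.3.3, signals were corrected by normexp (saddle, offset 16), quantile normalized and set to log2. The 21183 probes detected on at least 3 of 6 arrays were fitted (lmFit, eBayes, 2-sided) on group alone, with Benjamini-Hochberg adjustment over all of them. The fit was tested on simulated data. Symbols came from the platform annotation (34773 probes with 1 symbol, 18 with several, 10344 with none) and were updated by gene number for 34695 with RefSeq, GRCm38.p6. A list gene was read by its brightest kept probe.

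Members, lists and tests were chosen with earlier results of these data known. The naming rule took every member probe, the 5 genes nearest Tpm2 (for Myh11 it could not be applied), and in each list the first 4 measured genes and the widest difference each way. Alternatives changed background, normalization, offset, filter, probe rule, variance model, weights and covariates, and left out each array. Replicate numbers did not pair mice (correlations of same-numbered deviations -0.13, -0.097 and 0.030). The number of arrays limits precision.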

Additional observations from a re-analysis of the deposited data

How the results depend on the processing

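Of the 20 alternatives, 0 called a probe of the other 9 members. The first Tpm2 probe kept its direction wherever it was measured, and it was not in the fit of probes detected on all 6 arrays. It was chosen for this difference and its groups did not overlap, so leaving out 1 mouse could not turn the direction. Its log2 difference of 2.04 was 1.21 with no background correction, 1.20 with the authors' processed values, 1.45 with an offset of 50 and 2.52 with neqc, and 1.79 to 2.36 with 1 mouse left out. The median of the other members with a kept probe, 0.15, was 0.062 with no background correction and 0.10 to 0.19 with 1 mouse left out. The count of called probes, 1 by limma (1035 at an unadjusted p under 0.05), was 0 with no background correction (1014), the authors' values (996) and median scaling (906), 8 with array weights (whose estimation stopped before full convergence), and 0 to 1 with 1 mouse left out. It was 1 with Dnmt3a-deleted replicate 3 left out and 0 with any other mouse left out. With the replicate block the count stayed at 1 and the Tpm2 difference at 2.04, and the block changed no call. The first Acta2 probe stayed above 0, from 0.22 with array weights to 0.98 with sex as a term. It ran from 0.071 to 0.92 with 1 mouse left out. Differences near 0 changed sign. Tpm1 turned to 0.084 and 0.11 (first and second probe) with array weights and ran from -0.35 to 0.064 and from -0.39 to 0.10 with 1 mouse left out, positive without Dnmt3a-deleted replicate 3. The second Acta2 probe turned to -0.0020 with the authors' values, -0.058 with median scaling, -0.042 with cyclic loess and -0.14 with array weights, and ran from -0.13 to 0.14 with 1 mouse left out. The third turned to -0.040 with sex as a term and ran from -0.16 to 0.38. Tagln ran from -0.042 to 0.14. The cause of these moves was not tested. Limits: 13 of 21 probes were at background, where no change can be read, and Tpm2 was detected by 1 probe. Lists and single genes without Dnmt3a-deleted replicate 3 were added after seeing the data, and 0 genes were called in them.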
